A study of Mus musculus with 6 samples.

Results

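Cytochrome P450 enzymes are haem-containing monooxygenases that hydroxylate or epoxidise steroids, sterols, fatty acids, vitamins and drugs. The set described here holds the P450 genes other than the testosterone pathway enzymes Cyp11a1 and Cyp17a1 and the retinoic acid hydroxylases Cyp26a1 and Cyp26b1. Members were the rows whose whole symbol reads Cyp, digits, lowercase letters and digits, with those 4 left out. The rule uses no measured value. It gave 63 genes of 36652 in the table, and 57 of the 63 passed a minimum of 0.5 normalized counts, averaged over the 6 libraries, and were tested. The set is called non-steroidogenic, but the rule also keeps the aromatase Cyp19a1, the steroid 21-hydroxylase Cyp21a1 and the aldosterone synthase Cyp11b2, and the 3 are described as hormone-making enzymes.

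Testis RNA of mice aged 8 weeks was sequenced in 3 Ccdc117ko libraries and 3 WT libraries. The study's title links loss of Ccdc117, a gene for a coiled-coil protein, to raised androgens and maintained sperm formation. The labels give neither the allele nor the strain. They do not name separate animals, and p-values therefore reflect only how far these 6 libraries scatter, which may be technical. Ccdc117 itself had 3478, 3772 and 3908 normalized counts in the Ccdc117ko libraries, against 3657, 3826 and 3931 in the WT libraries (limma log2 fold change -0.03, adjusted p = 0.763). The gene-level total does not separate the labels, so every direction below rests on the labels: a Ccdc117ko library means a library labelled so, and likewise for WT.

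Most P450 enzymes of the Cyp1, Cyp2, Cyp3 and Cyp4 families sit in the endoplasmic reticulum and take electrons from the reductase Por, while mitochondrial members such as Cyp27a1, Cyp24a1 and Cyp27b1 take them from the ferredoxin Fdx1. In rodents the Cyp2, Cyp3 and Cyp4 families are expanded into clusters of similar genes that are best known from liver. In the testis P450 enzymes are best known for making androgens in Leydig cells, making oestrogen and clearing retinoic acid.

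Reads recovered from the table came to 35791616 to 43461692 per library. Testis markers were abundant, with 430001 to 475208 normalized counts summed over 5 spermatid genes in Ccdc117ko libraries, against 414085 to 468207 in WT libraries, with Acrv1 higher (log2 fold change 0.43, limma adjusted p = 0.0173) and 4 not called. The 7 Leydig markers summed to 78429 to 91258 in Ccdc117ko libraries, against 65947 to 76384 in WT libraries, with 3 higher and 1 lower. The 7 Sertoli markers summed to 6800 to 7157, against 8060 to 8186 in WT libraries, with 4 lower and none higher. The 5 macrophage markers summed to 1708 to 1925, against 2056 to 2292, with 1 lower. The 4 endothelial markers summed to 377 to 461, against 466 to 499, with none called. None of the 5 spermatocyte, 5 fat and 4 epididymis markers tested was called, beside 6.80% of all genes tested. In whole tissue, fewer cells of a type and less RNA per cell cannot be told apart. The 6 liver markers in the table summed to 108 to 112 normalized counts in Ccdc117ko libraries, against 107 to 126 in WT libraries, with none called and with albumin (Alb) below 5 normalized counts in every library.

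The upstream sequences of 4 members are shown because they carry the contrasts described below. Cyp4f39 rose, its cluster neighbours Cyp4f14 and Cyp4f13 gave different fold changes, and Cyp2s1 fell. Each run is the 250 bases before the RefSeq start on GRCm38.p6, in the direction of the gene. In GENCODE M21 the Cyp2s1 gene starts further upstream, at 25816913, so the whole Cyp2s1 run lies within the annotated gene. The Cyp4f13 gene starts there at 32947402, so its run lies partly within the gene. For Cyp4f14, which has 4 starts in the table, the start nearest to that of the gene in GENCODE M21 was used. Capitals mark the letters GCGTG (the core of an aryl hydrocarbon receptor site), CCAAT and GGGCGG (a GC box), searched on both strands. Also searched were the TATA box TATAAA, the cyclic AMP element core TGACG, the nuclear receptor core AGGTCA and its extended form AAGGTCA, which contains the core. None of these had a match in the 4 runs. The Cyp4f39 run is at chr17:32452473-32452722 on the plus strand, Cyp4f14 at chr17:32917343-32917592 and Cyp4f13 at chr17:32947362-32947611 on the minus strand, and Cyp2s1 at chr7:25816526-25816775 on the minus strand.
Cyp4f39: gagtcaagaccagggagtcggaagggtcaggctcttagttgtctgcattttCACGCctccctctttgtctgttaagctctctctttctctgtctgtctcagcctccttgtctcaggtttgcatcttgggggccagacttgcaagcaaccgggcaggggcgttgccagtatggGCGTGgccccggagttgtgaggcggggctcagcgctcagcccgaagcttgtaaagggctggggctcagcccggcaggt
Cyp4f14: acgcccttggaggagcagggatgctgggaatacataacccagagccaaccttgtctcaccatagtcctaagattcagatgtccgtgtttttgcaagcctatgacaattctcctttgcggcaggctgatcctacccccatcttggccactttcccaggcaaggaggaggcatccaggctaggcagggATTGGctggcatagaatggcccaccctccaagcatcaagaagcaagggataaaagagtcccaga
Cyp4f13: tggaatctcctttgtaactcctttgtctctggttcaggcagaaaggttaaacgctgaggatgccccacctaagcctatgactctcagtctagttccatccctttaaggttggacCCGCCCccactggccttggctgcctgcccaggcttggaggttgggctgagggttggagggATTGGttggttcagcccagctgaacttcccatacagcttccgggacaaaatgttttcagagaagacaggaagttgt
Cyp2s1: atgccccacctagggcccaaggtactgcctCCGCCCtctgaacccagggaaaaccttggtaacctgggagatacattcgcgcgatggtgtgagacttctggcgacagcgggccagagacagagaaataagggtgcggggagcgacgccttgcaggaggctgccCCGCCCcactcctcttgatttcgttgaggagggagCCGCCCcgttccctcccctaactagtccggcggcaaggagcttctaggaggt
GCGTG occurred at -199 and -78 before the Cyp4f39 start, counted at its first base. CCAAT, in reverse complement, occurred at -64 for Cyp4f14 and at -76 for Cyp4f13. GGGCGG, in reverse complement, occurred 3 times in the Cyp2s1 run and once in that of Cyp4f13. A match describes letters and is not a measured binding site. The RefSeq table held 57 starts of 49 members and none for the other 14. The median GC content of the 250 bases was 49.6% for the member starts, against 52.4% for all starts. Any part of GC content, or of sequence shared among members, in the shares below was not tested. Over those starts GCGTG was in 21.1%, against 28.2% of all 32851 starts in the table, CCAAT in 47.4%, against 33.8%, and GGGCGG in 21.1%, against 32.7%. The TATA box was in 29.8%, against 12.4%, and the cyclic AMP element core in 3.51%, against 17.8%. The nuclear receptor core was in 22.8%, against 14%, and its extended form in 12.3%, against 4.08%.

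Few of these genes were strongly expressed. Only 12 of the 63 averaged at least 100 normalized counts, 23 averaged 10 to under 100, and 28 averaged under 10. A read was present in all 6 libraries for 37 members. Per kb of the longest transcript, Cyp2d26, a member of the Cyp2d drug-oxidising subfamily, had the highest mean level at 558 normalized counts per kb, followed by Cyp4f39 at 509, the brain cholesterol 24-hydroxylase Cyp46a1 at 239, the sterol 27-hydroxylase Cyp27a1 at 183 and Cyp1b1 at 136. In the Ccdc117ko libraries alone Cyp4f39 stood first at 616 normalized counts per kb, against 402 in WT libraries, and Cyp2d26 had 566 in Ccdc117ko libraries, against 551 in WT libraries. Cyp3a11 and Cyp3a13, of a drug-clearing subfamily, averaged fewer than 1 normalized count.

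**Figure D1:**
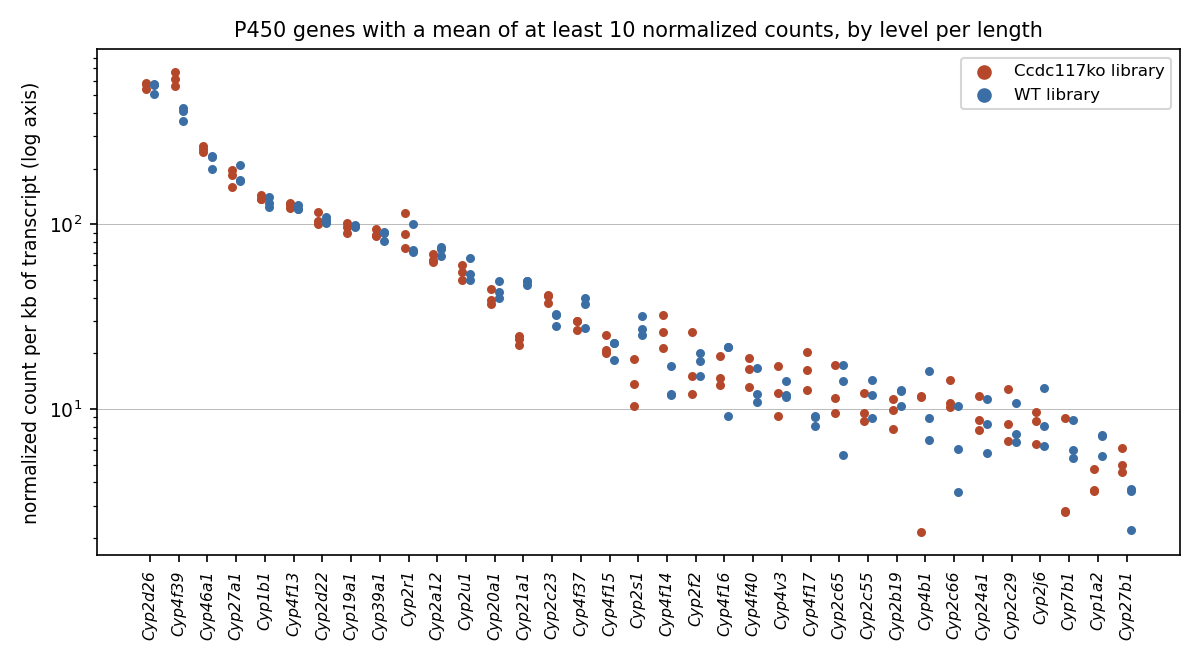
Normalized counts per kb of the longest transcript (log axis) for the 35 P450 genes averaging at least 10 normalized counts, ordered by mean level. Each point is a library, Ccdc117ko left of WT for each gene. Cyp2d26 and Cyp4f39 lead. The Ccdc117ko and WT points do not overlap for Cyp4f39, Cyp46a1, Cyp21a1, Cyp2c23, Cyp2s1, Cyp4f14, Cyp4f17, Cyp1a2 and Cyp27b1.

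Of the 57 tested P450 genes, 4 changed between the genotypes at a limma adjusted p under 0.05. Cyp4f39 and Cyp2c39 were higher in the Ccdc117ko libraries, beside 3.70% of all genes tested, Cyp21a1 and Cyp2s1 were lower, beside 3.10%, and 53 were not called. Cyp2c39 passed the minimum of 0.5 only through its Ccdc117ko reads, since it had none in WT libraries, so its call supports nothing about the set. The 4, Cyp2c39 included, are 7.02% of those tested, beside 6.80% of all 32783 genes tested. The set as a whole therefore stood near the background. The median log2 fold change was -0.04 over the members and 0.00 over all genes tested, with 25 members above 0 and 32 below. All 3 values of a genotype lay beyond those of the other in 13 members (22.8%), 7 higher and 6 lower, beside 27.0% of all genes tested, 13.7% higher and 13.3% lower. The authors' deposited table gives 5 of the 63 members an FDR under 0.05 (7.94%, beside 11.5% of its genes), namely Cyp4f39, Cyp21a1, Cyp2s1, Cyp4f14 and Cyp4f17. Summed over the set, normalized counts were 6736, 6985 and 6755 in Ccdc117ko libraries, against 6396, 6297 and 5918 in WT libraries. Without Cyp4f39 the sums were 5256, 5238 and 5146 in Ccdc117ko libraries, against 5275, 5218 and 4964 in WT libraries, and the 2 ranges overlapped.

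**Figure D2:**
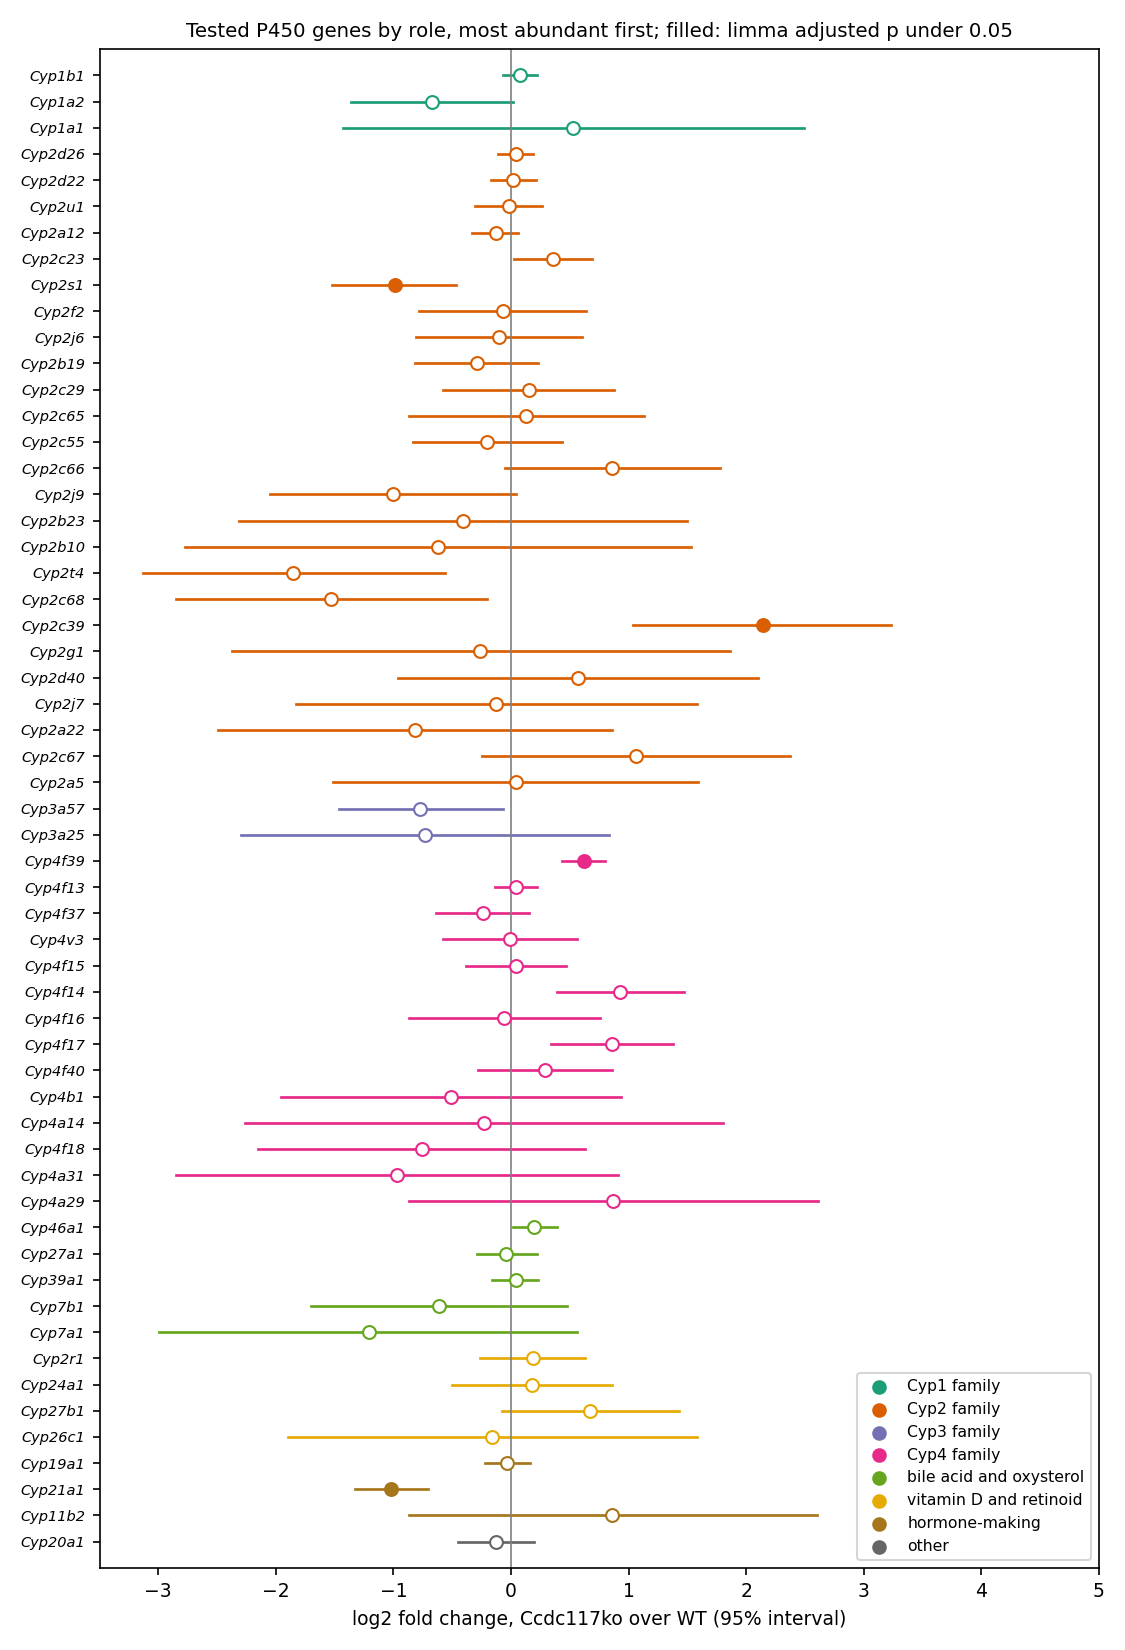
Limma log2 fold changes, Ccdc117ko over WT, with 95% intervals for the 57 tested P450 genes, coloured by role and ordered by abundance within a role. Filled points have an adjusted p under 0.05 and are Cyp2s1, Cyp2c39, Cyp4f39 and Cyp21a1; the intervals widen towards the genes with few reads.

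The Cyp4 family hydroxylates the end carbon of fatty acids and of eicosanoids such as leukotriene B4. Of its 14 tested members 1 was higher, none lower and 13 were not called, with a median log2 fold change of 0.01. Over all genes tested 3.70% were higher and 3.10% lower. Cyp4f39 (ENSMUSG00000061126, plus strand of chromosome 17, 32452723 to 32493320 in mm10) is the mouse counterpart of human CYP4F22, an enzyme known in skin for hydroxylating the ultra-long fatty acids of barrier ceramides. It had 1480, 1747 and 1609 normalized counts in the Ccdc117ko libraries, against 1121, 1079 and 954 in the WT libraries. Every Ccdc117ko library was above every WT library. The means were 1612 ± 133 in Ccdc117ko libraries and 1051 ± 86.8 in WT libraries (SD, n = 3 each), a ratio of 1.53. The limma log2 fold change was 0.62 (SE 0.08, adjusted p = 0.0136). It made up at least 22.0% of the set's normalized counts in each Ccdc117ko library, against at most 17.5% in each WT library. The summed Leydig markers were also higher in the Ccdc117ko libraries, with 3 of the 7 genes called higher, 1 lower and 3 not called. Most of that sum is Insl3, which averaged 57057 normalized counts in Ccdc117ko libraries and 48328 in WT libraries. Its groups overlapped and it was not called (limma adjusted p = 0.113). Of the 5 spermatid markers Acrv1 was higher and 4 were not called. Any part of these cell types in the rise of Cyp4f39 was not tested. Its longest transcript shares no word of 50 bases with another gene. Shorter or mismatched alignments to a paralog were not checked.

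In the test over all genes the Cyp4f39 call was lost with some single libraries left out, where calls over the whole table also fell. The limma adjusted p was 0.0792 and 0.0574 without Ccdc117ko replicates 2 and 3, and 0.0533 and 0.0602 without WT replicates 2 and 3. In these fits 17, 36, 109 and 45 genes were called over the whole table, against 2228 with all libraries. The call was kept without Ccdc117ko or WT replicate 1, where 505 and 1783 genes were called. The log2 fold change of Cyp4f39 stayed between 0.55 and 0.68 whichever library was left out. When the test was limited to genes averaging 10 or more normalized counts, where 16.6% of genes were called, its limma adjusted p was 0.000609, and 0.000287 to 0.00573 when single libraries were omitted.

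Cyp4f39 opens a cluster of 8 member genes on chromosome 17 that spans 513 kb, from 32452723 to 32965718, together with 11 other tested genes. Cyp4f14 and Cyp4f17 had ratios larger than Cyp4f39 but far fewer reads, and the other 5 Cyp4f genes there had overlapping values. Cyp4f14, a leukotriene B4 hydroxylase of mouse, had 72, 57.9 and 47.4 normalized counts in Ccdc117ko libraries, against 38, 26.9 and 26.5 in WT libraries. The groups did not overlap, and the log2 fold change was 0.93 (SE 0.23, limma adjusted p = 0.0556). Cyp4f17 had 60, 47.8 and 37.3 in Ccdc117ko libraries, against 23.9, 26.9 and 26.5 in WT libraries, again without overlap (0.86, SE 0.23, limma adjusted p = 0.0639). Both missed the threshold over all genes and passed it among genes averaging 10 or more (limma adjusted p = 0.0192 for Cyp4f14 and 0.0299 for Cyp4f17). Under that minimum Cyp4f14 lost the call without Ccdc117ko replicate 1 (limma adjusted p = 0.0772) or 2 (0.0653) and without WT replicate 2 (0.0583) or 3 (0.0685). Cyp4f17 lost it without Ccdc117ko replicate 1 (limma adjusted p = 0.117) or 2 (0.0922) and without WT replicate 1 (0.0572), 2 (0.0582) or 3 (0.0711). In limma-voom, where 7.40% of genes were called, Cyp4f14 passed (adjusted p = 0.0468) and Cyp4f17 did not (0.0635).

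None of the other 5 P450 genes of the cluster was called. Cyp4f13, next to Cyp4f14, had 215, 224 and 228 normalized counts in Ccdc117ko libraries, against 213, 212 and 223 in WT libraries, with a log2 fold change of 0.04 and a 95% interval of -0.14 to 0.22. Cyp4f15 had 0.04, Cyp4f40 0.29, Cyp4f16 -0.06 and Cyp4f37 -0.24 on the log2 scale, with limma adjusted p between 0.456 and 0.963. None of the 11 other genes tested within the span was called. The pseudogene Cyp4f38-ps stood at -1.06 on means of 3.04 normalized counts in Ccdc117ko libraries and 5.48 in WT libraries (limma adjusted p = 0.43). An unnamed long non-coding RNA stood at 1.06 on means of 3.36 in Ccdc117ko libraries and 0.983 in WT libraries (limma adjusted p = 0.54). Cyp4f16 and Cyp4f37 share sequence, with 24.8% of the 50-base words of the Cyp4f16 transcript found in Cyp4f37, so reads may be split between them, whereas 2.72% of the Cyp4f14 words and 3.25% of the Cyp4f17 words occur in another gene.

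**Figure D3:**
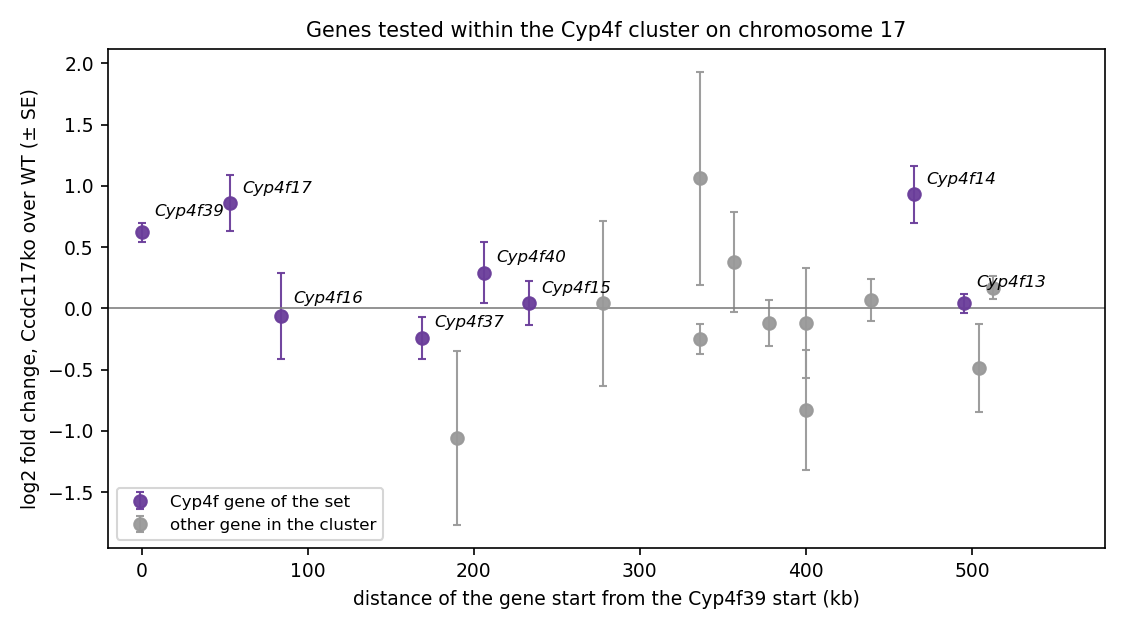
Limma log2 fold change (± SE), Ccdc117ko over WT, of the 19 genes tested in the Cyp4f cluster, against the distance of each start from that of Cyp4f39 in kb. Cyp4f39, Cyp4f17 and Cyp4f14 lie at 0.62 to 0.93, and the other 5 Cyp4f genes of the set lie at -0.24 to 0.29. On few reads, the pseudogene Cyp4f38-ps lies at -1.06 and an unnamed long non-coding RNA at 1.06.

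Outside the cluster the Cyp4 genes were sparse. Cyp4v3, a fatty acid omega-hydroxylase, averaged 48.8 ± 15.2 normalized counts in Ccdc117ko libraries and 47.9 ± 5.42 in WT libraries (SD, n = 3 each; log2 fold change -0.01). Cyp4b1 averaged 16.1 ± 10.4 in Ccdc117ko libraries and 20.1 ± 9.19 in WT libraries, and Cyp4f18, a leukotriene B4 hydroxylase of neutrophils, averaged 1.67 and 2.99. The 3 Cyp4a genes had fewer than 3 normalized counts on average.

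Among the 3 hormone-making enzymes tested, Cyp21a1 was lower, beside 3.10% of all genes tested. The aromatase Cyp19a1 and Cyp11b2 were not called. Cyp21a1 (ENSMUSG00000024365, minus strand of chromosome 17, 34801348 to 34804561) encodes steroid 21-hydroxylase, which makes the precursors of corticosterone and aldosterone in the adrenal cortex. It had 51, 45.7 and 49.4 normalized counts in the Ccdc117ko libraries, against 101, 101 and 96.3 in the WT libraries. The groups did not overlap, on 145 reads over the Ccdc117ko libraries and 304 over the WT libraries. Replicates of each label lay closer together than counting error on so few reads would usually give, so their small spread adds no support. The means were 48.7 ± 2.69 in Ccdc117ko libraries and 99.5 ± 2.80 in WT libraries (SD, n = 3 each), a ratio of 0.489. The limma log2 fold change was -1.02 (SE 0.13, adjusted p = 0.0135).

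The Cyp21a1 call was lost in limma without Ccdc117ko replicate 2 (adjusted p = 0.0792) or 3 (0.0551) and without WT replicate 2 (0.0523) or 3 (0.062), at log2 fold changes of -1.05 to -0.97 over all 6 omissions. Among genes averaging 10 or more the limma adjusted p was 0.00194, and at most 0.011 when single libraries were omitted. Its transcript shares 23.7% of its 50-base words with the pseudogene Cyp21a2-ps, which had 3, 5.08 and 2.02 normalized counts in Ccdc117ko libraries, against 3.26, 0 and 0 in WT libraries. It also overlaps exons of Tnxa on the opposite strand, where Tnxa was at 0.11 on the log2 scale (limma adjusted p = 0.892), and the use of strand in counting is not given in the sources used here. Of the 6 nearest tested protein-coding genes, C4b was lower at -0.45 (limma adjusted p = 0.0325) and 5 were not called.

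Of 5 adrenal cortex markers chosen, Cyp11b1 and Mc2r had no entry in the deposited data, and 3 were tested. Cyp21a1, itself on that list, was the only one called. Cyp11b2 is also a member of the set, so Akr1b7 is the only tested marker from outside it. Akr1b7, an aldo-keto reductase of adrenal and other steroid-making tissues, had 12, 10.2 and 7.05 normalized counts in Ccdc117ko libraries, against 2.17, 3.59 and 2.95 in WT libraries, which is in the opposite direction (log2 fold change 1.45, limma adjusted p = 0.0582). Cyp11b2, the aldosterone synthase, had 5 reads in 1 Ccdc117ko library and none in the other libraries. Cyp19a1 had 236, 251 and 219.7 normalized counts in Ccdc117ko libraries, against 244, 239.5 and 237 in WT libraries. Its log2 fold change was -0.03, with a 95% interval of -0.22 to 0.16.

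The Cyp2 family, the largest group of the set, oxidises drugs, steroids and arachidonic acid. Of 25 tested genes 1 was higher, 1 lower and 23 were not called, with a median log2 fold change of -0.10. Over all genes tested 3.70% were higher and 3.10% lower. The 1 higher gene is Cyp2c39, which passed the minimum only through its Ccdc117ko reads, so its call supports nothing about the family. Cyp2s1 (ENSMUSG00000040703, minus strand of chromosome 7, 25802475 to 25816913) is a P450 of tissues outside the liver such as lung, gut and skin. It had 33, 58.9 and 43.3 normalized counts in the Ccdc117ko libraries, against 101, 79.8 and 85.5 in the WT libraries. Every Ccdc117ko value was below every WT value, although the Ccdc117ko libraries varied. The means were 45.1 ± 13.1 in Ccdc117ko libraries and 88.8 ± 10.9 in WT libraries (SD, n = 3 each), a ratio of 0.508, with a limma log2 fold change of -0.99 (SE 0.23, adjusted p = 0.0424).

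The Cyp2s1 call was close to the threshold. It was lost in limma whichever library was left out, at adjusted p of 0.095, 0.0813 and 0.109 without Ccdc117ko replicates 1, 2 and 3 and of 0.109, 0.097 and 0.127 without WT replicates 1, 2 and 3. It was also lost once length and GC content were corrected for (adjusted p = 0.0594, log2 fold change -0.92). Among genes averaging 10 or more the limma adjusted p was 0.00967, and 0.01 to 0.0331 when single libraries were omitted. Cyp2s1 has no 50-base word in common with another gene on its own strand, and Gm26707, which overlaps it on the other strand, had at most 7.11 normalized counts. Of the 6 nearest tested protein-coding genes, Axl, a receptor tyrosine kinase known in Sertoli cells and macrophages, was lower at -0.46 (limma adjusted p = 0.00948) and Hnrnpul1 was lower at -0.16 (adjusted p = 0.0366). The summed Sertoli and macrophage markers were lower in the Ccdc117ko libraries, as given above, and their part in the falls of Cyp2s1 and Cyp21a1 was not tested.

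Cyp2c39, an arachidonic acid epoxygenase of the Cyp2c cluster (ENSMUSG00000025003, plus strand of chromosome 19, 39510862 to 39568529), was called higher on very few reads. It had 3, 2 and 6 reads in the Ccdc117ko libraries and 0 in each WT library. The 11 Ccdc117ko reads have an exact 95% Poisson interval of 5.49 to 19.7, and a count of 0 over the WT libraries allows up to 3. Against that floor of 3 counts over the group, the level was at least 3.74-fold higher in the Ccdc117ko libraries with their reads taken as exact, and 1.87-fold at the lower end of the interval. Floors and intervals cover counting error only. The fitted limma log2 fold change of 2.14 (adjusted p = 0.0388) depends on the pseudocount and is no bound. The call was lost in limma whichever library was left out (adjusted p = 0.0724 to 0.118), with a pseudocount of 5, and the gene is not tested where an average of 10 is required. Of its 50-base words, 12% occur in another gene, mostly in Cyp2c38.

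**Figure D4:**
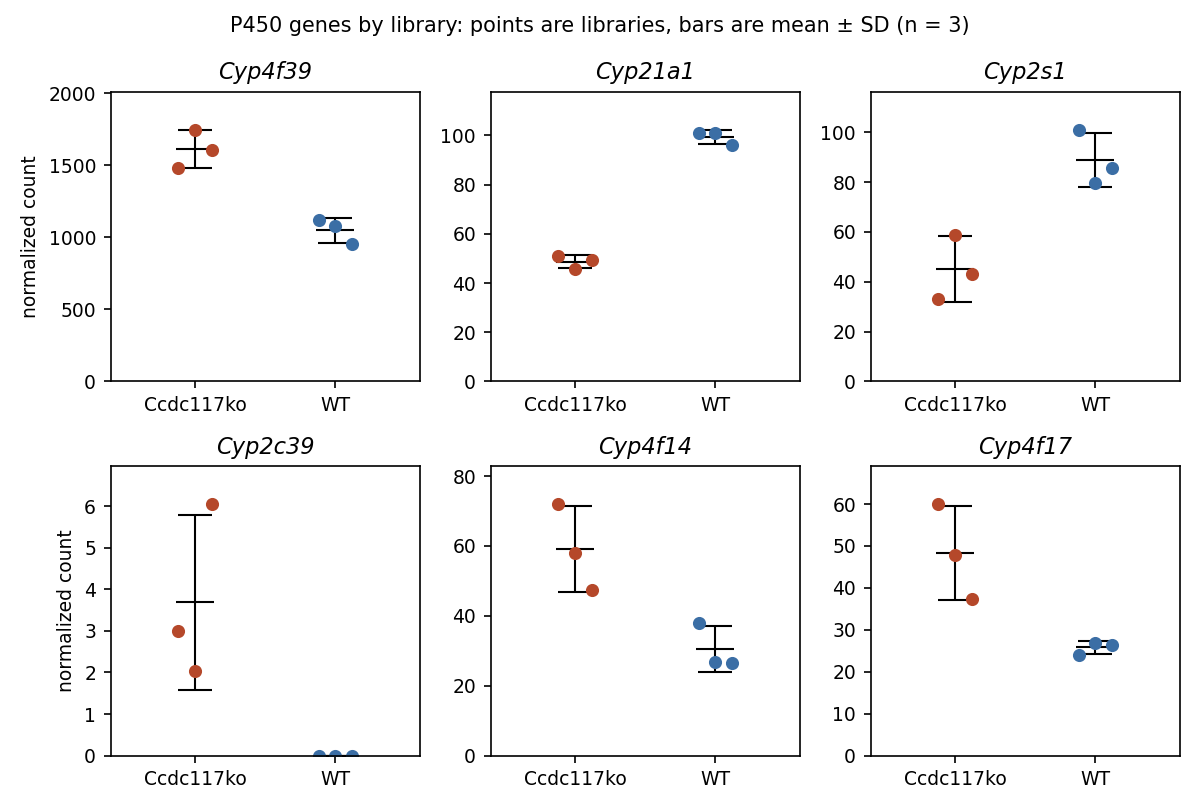
Normalized counts per library, with the mean and SD (n = 3), for the 4 called P450 genes and for Cyp4f14 and Cyp4f17, on axes that start at 0. Ccdc117ko libraries are left of WT libraries; in each panel the 2 groups do not overlap, and the Cyp2c39 panel reaches only 6.05 normalized counts.

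The other Cyp2c genes had few reads. Cyp2c23, an arachidonic acid epoxygenase known in kidney, had 79.9, 78.2 and 71.6 normalized counts in Ccdc117ko libraries, against 54.3, 61.9 and 62.9 in WT libraries. The groups did not overlap, but the difference was not called (log2 fold change 0.36, SE 0.14, limma adjusted p = 0.187). Cyp2c66 averaged 20.8 ± 3.97 in Ccdc117ko libraries and 11.8 ± 6.15 in WT libraries (SD, n = 3 each; limma adjusted p = 0.243), and it shares 20.4% of its 50-base words with Cyp2c65, which was at 0.13 on the log2 scale. Cyp2c29, known in liver for making epoxides of arachidonic acid, was at 0.15 on the log2 scale and Cyp2c55 at -0.20.

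None of the 4 most abundant Cyp2-family genes was called. Cyp2d26 had 989, 919 and 977 normalized counts in Ccdc117ko libraries, against 861, 969 and 979 in WT libraries (log2 fold change 0.04, 95% interval -0.11 to 0.19). Cyp2d22 averaged 364 ± 30.4 in Ccdc117ko libraries and 358 ± 14 in WT libraries (SD, n = 3 each). Cyp2u1, which hydroxylates long-chain fatty acids, averaged 242 ± 23.2 in Ccdc117ko libraries and 247 ± 35.8 in WT libraries. Cyp2a12, a steroid and bile acid hydroxylase of mouse liver, averaged 226 ± 11.6 in Ccdc117ko libraries and 248 ± 14.6 in WT libraries, with a log2 interval of -0.33 to 0.06. Cyp2t4 and Cyp2j9 lay lower without overlap on few reads, Cyp2t4 with 2, 0 and 0 reads in Ccdc117ko libraries, against 5, 5 and 3 in WT libraries (limma adjusted p = 0.0916), and Cyp2j9 with 2, 4 and 6 reads, against 7, 7 and 13 (adjusted p = 0.239). On chromosome 7, Cyp2t4 runs from 27153714 to 27158668 and Egln2, on the opposite strand, from 27158658 to 27166802. Their exons share bases only at that edge, so only reads reaching it cannot be told apart if strand was not used. Egln2 averaged 29557 normalized counts.

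Cyp1 enzymes are induced by the aryl hydrocarbon receptor and act on oestrogens and polycyclic hydrocarbons. None of the 3 tested was called and 1 did not overlap, beside 6.80% and 27.0% of all genes tested. Cyp1b1, which is known in steroid-producing tissues, had 701, 737 and 704 normalized counts in Ccdc117ko libraries, against 722, 669 and 639.7 in WT libraries, and the groups overlapped (log2 fold change 0.08, 95% interval -0.07 to 0.22, limma adjusted p = 0.525). Cyp1a2, known from liver, had 7, 9.15 and 7.05 in Ccdc117ko libraries, against 14.1, 10.8 and 13.8 in WT libraries, without overlap and without a call (log2 fold change -0.67, limma adjusted p = 0.237). Cyp1a1 had 3, 3 and 0 reads in Ccdc117ko libraries, against 4, 0 and 0 in WT libraries.

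Of the Cyp3 family, which clears drugs and steroids in liver and gut, 2 of 4 members were tested. Neither was called and 1 did not overlap, beside 6.80% and 27.0% of all genes tested. Cyp3a57 had 7.99, 7.11 and 6.05 normalized counts in Ccdc117ko libraries, against 10.9, 12.6 and 14.7 in WT libraries, without overlap (log2 fold change -0.77, limma adjusted p = 0.181). Cyp3a25 had 4 reads in 1 WT library and none in the others.

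Enzymes that turn cholesterol into oxysterols and bile acids showed no call among 5 tested. Among all genes tested 6.80% were called and 27.0% did not overlap between the genotypes, so no call among 5 lies near that share. Cyp46a1 had 561, 542 and 522 normalized counts in Ccdc117ko libraries, against 493, 499.6 and 423 in WT libraries. The groups did not overlap, with a log2 fold change of 0.20 (SE 0.08, 95% interval 0.02 to 0.39, limma adjusted p = 0.182). Cyp27a1 had 374, 349 and 303 in Ccdc117ko libraries, against 396, 330.1 and 325 in WT libraries. Cyp39a1, which hydroxylates the product of Cyp46a1, had 264, 288 and 268 in Ccdc117ko libraries, against 277, 275 and 248 in WT libraries. Both overlapped, with 95% intervals of -0.29 to 0.22 for Cyp27a1 and -0.16 to 0.23 for Cyp39a1. The oxysterol 7-alpha-hydroxylase Cyp7b1 averaged 10.5 ± 7.67 in Ccdc117ko libraries and 14.6 ± 3.76 in WT libraries, and Cyp7a1, the rate-limiting enzyme of bile acid synthesis in liver, averaged 3.01 and 6.77 (limma adjusted p = 0.507 and 0.403).

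Of 4 vitamin D and retinoid enzymes none was called and 1 did not overlap, beside 6.80% and 27.0% of all genes tested. Cyp2r1, a vitamin D 25-hydroxylase, had 141, 168 and 217 normalized counts in Ccdc117ko libraries, against 189, 138 and 133 in WT libraries, with a log2 interval of -0.26 to 0.63. Cyp27b1, which makes the active hormone, had 15, 12.2 and 11.1 in Ccdc117ko libraries, against 5.43, 8.97 and 8.84 in WT libraries, without overlap (log2 fold change 0.67, limma adjusted p = 0.27). Cyp24a1, which inactivates it, averaged 33.6 ± 7.54 in Ccdc117ko libraries and 30.1 ± 9.77 in WT libraries (SD, n = 3 each; limma adjusted p = 0.779). The retinoic acid hydroxylase Cyp26c1 had 2 reads in the Ccdc117ko libraries and 3 in the WT libraries. Cyp20a1, a P450 with no established substrate and the only member outside these groups, averaged 89.4 ± 9.13 in Ccdc117ko libraries and 97.7 ± 10.8 in WT libraries (log2 fold change -0.13).

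For the 11 members averaging at least 100 normalized counts that were not called, log2 fold changes ran from -0.13 to 0.20, and their 95% intervals from -0.33 to 0.63. Intervals of sparse members were far wider, from -2.99 to 0.56 for Cyp7a1.

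Genes that P450 enzymes depend on were mostly not called, beside 6.80% called among all genes tested. Of 13 electron donors and their partners 1 was higher and none lower, with a median log2 fold change of 0.04. Fdx1 had 1493, 1499.9 and 1394 normalized counts in Ccdc117ko libraries, against 1158, 1154 and 1211 in WT libraries (log2 fold change 0.32, limma adjusted p = 0.018), while Por had 1067, 1160.5 and 1167 in Ccdc117ko libraries, against 1085, 964 and 1029 in WT libraries (0.14, adjusted p = 0.232). None of 13 genes of haem synthesis and breakdown was called (median 0.00), with the most abundant, Hmox2 and Alas1, at 0.07 and 0.00. None of 17 receptors and partners that set P450 transcription was called (median -0.05), with Nr1h2 at 0.03 and Rxra at 0.19. The aryl hydrocarbon receptor Ahr averaged 37.9 ± 6.76 in Ccdc117ko libraries and 47.4 ± 11.3 in WT libraries, and Nr1i2, the pregnane X receptor, 22.9 ± 5.27 and 19.9 ± 4.01 (SD, n = 3 each). None of 4 epoxide hydrolases was called (median 0.03), with Ephx1 at 0.12 and Ephx4 at 0.32. Of the 7 P450 genes outside the rule, Cyp17a1 (0.47) and Cyp51 (0.31) were higher and 5 were not called.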

How the data were processed

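Libraries of polyadenylated RNA from 3 Ccdc117ko and 3 WT testis samples were made with a stranded kit and sequenced on an Illumina instrument, per the labels' protocols. STAR, DESeq2 and the mm10 genome are named, per the submitters' processing notes; no role or version is given there, and the sources used here do not describe the counting or its strand setting. The authors deposited log2 values per library, which are log2(normalized count + 1) as judged from the values, and their own p-value and FDR from an unnamed test. Undoing the log2 gave whole reads for 100% of values under 500 reads (tolerance 0.01), which set the depth.

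Limma-trend (limma 3.58.1, R 4.3.3) was fitted to the log2 values by genotype alone, over 32783 genes that averaged 0.5 or more normalized counts; p-values are two-sided, with Benjamini-Hochberg adjustment over all genes tested and 0.05 as the threshold. Fold changes on this scale understate those of genes with few reads. Replicates differed by more than sampling noise (chi-square per degree of freedom 4.68 to 7.50). Gene positions and transcript lengths came from GENCODE M21, which matched all 63 members.

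Members, role groups and gene lists were chosen with earlier results of these data known. Named members are those called, the 15 most abundant, up to 10 further genes with no overlap between genotypes, and the 2 most abundant of each role; others were named after their values were seen to describe a cluster or family.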

Additional observations from a re-analysis of the deposited data

How the results depend on the processing

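The 4 P450 calls (2 higher, 2 lower) were 3 to 5 under other pseudocounts, filters, upper-quartile scaling, limma-voom and the length and GC correction alone. Leaving out each library in turn gave 0 to 2 calls among members, the lowest without Ccdc117ko replicate 2 or 3 or WT replicate 2 or 3, where 9 to 11 members had an unadjusted limma p under 0.05, and 17 to 1783 calls over the whole table, against 2228. With a mean of at least 10, leaving out a library, an alternative added after seeing the data, gave 3 to 5 members and 1735 to 4026 genes. Over all genes, 3798 were called with a mean of at least 10 and 4127 with at least 1 CPM in 3 libraries. With the length and GC correction 1442 were higher and 432 lower, against 1212 and 1016. With the replicate block 2 members (Cyp4f39, adjusted p = 0.0457, and Cyp21a1, 0.0466) and 703 genes were called in limma, and with the block and the length and GC correction together 0 members (10 at an unadjusted p under 0.05) and 26 genes. Deviations of same-numbered libraries correlated at -0.00388 to 0.00611, and those of other pairs at -0.00909 to 0.0127. No shared deviation was seen, but the labels do not say whether equal numbers mark libraries handled together. No called member changed sign in any alternative. Since their groups do not overlap, leaving out a library could not change it, so the unchanged sign is no measure of robustness. Of the 23 other named members 7 changed sign, and their main log2 fold changes lay between -0.04 and 0.18. Few reads limit the members with means under 10. The causes of the lost calls were not tested.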

Other observations

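Of 9 rows for P450 pseudogenes, 7 were tested and none was called in limma, beside 6.80% of all genes tested. Cyp4f41-ps, whose end closes the Cyp4f cluster, was the most abundant, with 229.9, 258 and 239 normalized counts in Ccdc117ko libraries, against 228, 197 and 219 in WT libraries (log2 fold change 0.17, limma adjusted p = 0.313). Cyp2c52-ps had 37, 39.6 and 47.4 normalized counts in Ccdc117ko libraries, against 34.7, 34.1 and 38.3 in WT libraries (log2 fold change 0.20, limma adjusted p = 0.59). Cyp3a41a and Cyp3a41b, whose symbols end in a letter and so lie outside the rule, are near-identical copies with at most 7 normalized counts in any library and log2 fold changes of 0.17 and -0.20.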
